A study of Caenorhabditis elegans with 20 samples.

Results

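Small heat shock proteins are short chaperones built around an alpha-crystallin domain. They bind unfolding proteins without ATP and hold them in a state from which larger chaperones can refold them. In C. elegans the hsp-16 genes are nearly silent in unstressed animals and are switched on by heat through the transcription factor HSF-1, and an hsp-16.2 reporter is a widely used readout of stress in studies of lifespan. The Hsp12 proteins are very short relatives with little chaperone activity in the test tube, and hsp-12.6 is a known target of the insulin-pathway factor DAF-16. SIP-1 is a small heat shock protein of the germ line, found in oocytes and embryos.

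Values are given here for 9 such genes of the 21383 genes counted, chosen by name: the 6 hsp-16 genes, hsp-12.3, hsp-12.6 and sip-1. The assay was 3SEQ, which reads only the ends of polyadenylated transcripts, and counts of long and short genes can therefore be set side by side. The 20 libraries came from whole worms of an elt-2 overexpressing strain (OE, SD1963, with an extrachromosomal array of elt-2:gfp and unc-119(+)) and of a transgenic control (SD1965, with an array of unc-119(+) alone). The strain names follow the sample labels. The growth label names N2 for the L4 worms, and the methods of the study name SD1965 both as the control and as an overexpressing line, so these sources conflict. Both strains also carry rde-1(ne300) and unc-119(ed3), and each is a single transgenic line. The elt-2 transgene is driven by its own upstream region, and elt-2 encodes the GATA factor of the intestine. Each strain was collected at Day 13 of adulthood and at the L4 larval stage, with 5 libraries per group, lettered A to E. Each library was made from a large pool of animals, so the spread between libraries is that between pools. Worms aged to Day 13 were kept on FUDR, which blocks progeny, whereas L4 larvae were not. Larva against adult, FUDR and age therefore cannot be told apart. In whole worms, fewer cells of a type and less RNA per cell cannot be told apart either.

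The libraries held 10749795 to 42317549 counts. A count of 0 in a library allows up to 3 counts, which is 0.0709 to 0.279 counts per 1000000 counts of the library (CPM) by the depth of the library, a limit for counting error only. The overexpressed gene matched the labels at Day 13, where elt-2 had 139 to 181 counts in OE and 24 to 38 in control. At L4 it had 76 to 225 counts in OE and 17 to 59 in control. In CPM the L4 groups overlapped, at 3.15 to 10.15 in OE and 0.674 to 3.49 in control. The log2 difference of elt-2 at L4 was 1.83 ± 0.54 and was not called (SE, edgeR adjusted p = 0.340). The L4 libraries went against their label in part. The adult cuticle collagen gene col-19 stood at 7271 to 13132 CPM in OE and at 4026 to 8015 CPM in control L4 libraries A to C, against 123 to 135 CPM in OE and 1.36 to 1.58 CPM in control L4 libraries D and E. The yolk protein gene vit-2 was at 1608 to 2141 CPM in OE and 854 to 3423 CPM in control L4 libraries A to C, against 42.7 to 50.2 CPM in OE and 0.473 to 5.45 CPM in control L4 libraries D and E. The age comparisons of hsp-16.2, hsp-16.41, hsp-12.3 and sip-1 are therefore also given within letters A to C and within letters D and E. CPM values are scaled by the trimmed mean of M-values (TMM), except the limits given for a count of 0, which use unscaled totals.

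The 9 genes lie in 4 places of the genome (WBcel235 coordinates from Ensembl), and all are annotated as protein coding. On chromosome V, hsp-16.2 (Y46H3A.3, 1804334 to 1804957, minus strand) and hsp-16.41 (Y46H3A.2, 1805178 to 1805875, plus strand) are divergent neighbours with 220 bases between them. Further along chromosome V lies an inverted repeat of 2 more divergent pairs. These are hsp-16.1 (T27E4.8, 9087293 to 9087782, minus strand) with hsp-16.48 (T27E4.3, 9088131 to 9088617, plus strand), 348 bases apart, and hsp-16.49 (T27E4.9, 9089280 to 9089766, minus strand) with hsp-16.11 (T27E4.2, 9090077 to 9090604, plus strand), 310 bases apart. Ensembl gives hsp-16.11 the name of hsp-16.1 and hsp-16.49 that of hsp-16.48, as copies. On chromosome IV, hsp-12.3 (F38E11.1, 9444791 to 9445507) and hsp-12.6 (F38E11.2, 9446229 to 9447228) sit 721 bases apart on the minus strand, and hsp-12.6 overlaps a piRNA gene of the same strand. On chromosome III, sip-1 (F43D9.4, 10506106 to 10506801, minus strand) overlaps a non-coding gene of the opposite strand. Strand use in the counting is not given in the sources used here, so sip-1 counts could hold reads of both.

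The genes differed in abundance by orders of magnitude. sip-1 held 3079458 counts over the 20 libraries, against 279 for hsp-12.3, 172 for hsp-16.2, 109 for hsp-16.41 and 25 for hsp-12.6. The 4 genes of the inverted repeat, hsp-16.1, hsp-16.11, hsp-16.48 and hsp-16.49, had 0 counts in all 20 libraries, as did 2408 of the 21383 genes (11.3%). Pooled over all libraries, a count of 0 allows up to 0.00557 CPM. Reads of identical copies do not map uniquely. In the methods of the study each gene is scaled to all uniquely mapped reads, but which reads were counted is not given in the sources used here, so these 0 counts are not a measure of absence.

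The heat-inducible gene hsp-16.2 was counted in every Day 13 library and was close to silent at L4. At Day 13 it had 36, 16, 9, 25 and 3 counts in OE libraries A to E and 25, 3, 9, 23 and 7 counts in control libraries A to E. At L4 it had 2, 2, 1, 3 and 0 counts in OE and 0, 2, 1, 4 and 1 counts in control. Letters A and D gave the highest values in both strains at Day 13. In CPM, hsp-16.2 averaged 0.678 ± 0.423 at Day 13 and 0.0614 ± 0.0430 at L4 in OE worms (SD, n = 5 each), with no overlap between the ages. In control worms it averaged 0.464 ± 0.320 CPM at Day 13 and 0.0715 ± 0.0721 CPM at L4 (SD, n = 5 each), and library B at Day 13, with 0.106 CPM, lay below L4 library D, with 0.191 CPM. Within each letter hsp-16.2 was higher at Day 13 in 5 of 5 letters of either strain. The shares of all genes that were higher in 5 of 5 letters, or did not overlap between the ages, were not computed.

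The divergent neighbour hsp-16.41 went the same way at still lower counts. It had 22, 9, 5, 18 and 1 counts in OE and 9, 9, 7, 20 and 1 counts in control libraries A to E at Day 13. At L4 the counts were 1, 0, 0, 3 and 0 in OE and 2, 0, 0, 2 and 0 in control. Library E, with 1 count in either strain, was the lowest of its group at Day 13 and fell within the L4 range. hsp-16.41 averaged 0.417 ± 0.294 CPM at Day 13 and 0.0295 ± 0.0490 CPM at L4 in OE worms, and 0.310 ± 0.218 CPM at Day 13 and 0.0350 ± 0.0482 CPM at L4 in control worms (SD, n = 5 each). It was also higher at Day 13 in 5 of 5 letters of either strain, again without a share of all genes to set beside it.

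The edgeR filter on low counts removed both genes from the age comparisons, and these genes were tested without it. Among all genes so tested, 36.4% changed with age in OE worms (16.3% higher and 20.2% lower at Day 13) and 35.1% in control worms (17.7% higher and 17.4% lower) at an adjusted p under 0.10. The log2 change of hsp-16.2 was 3.29 ± 0.70 in OE worms (SE, edgeR adjusted p = 0.00333) and 2.71 ± 0.78 in control worms (SE, edgeR adjusted p = 0.0190). That of hsp-16.41 was 3.53 ± 0.91 in OE worms (SE, edgeR adjusted p = 0.0111) and 3.05 ± 0.94 in control worms (SE, edgeR adjusted p = 0.0256). Both genes thus rose in both strains. An exact two-sided permutation test of mean log2 CPM over all assignments of the libraries, adjusted over all genes with a count, gave hsp-16.2 an adjusted p of 0.0369 in OE and 0.0692 in control worms, and hsp-16.41 an adjusted p of 0.0607 in OE and 0.0911 in control worms. By that test 29% of all genes changed in OE worms and 26.1% in control worms. Letters A to C alone gave hsp-16.2 a log2 change of 3.32 in OE and 3.13 in control worms, and hsp-16.41 4.55 and 3.103. Letters D and E alone gave hsp-16.2 3.14 in OE and 2.12 in control worms, and hsp-16.41 2.58 and 2.78. With only 2 letters, hsp-16.2 in control worms and hsp-16.41 in OE worms lost their calls (edgeR adjusted p = 0.104 and 0.101).

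**Figure D1:**
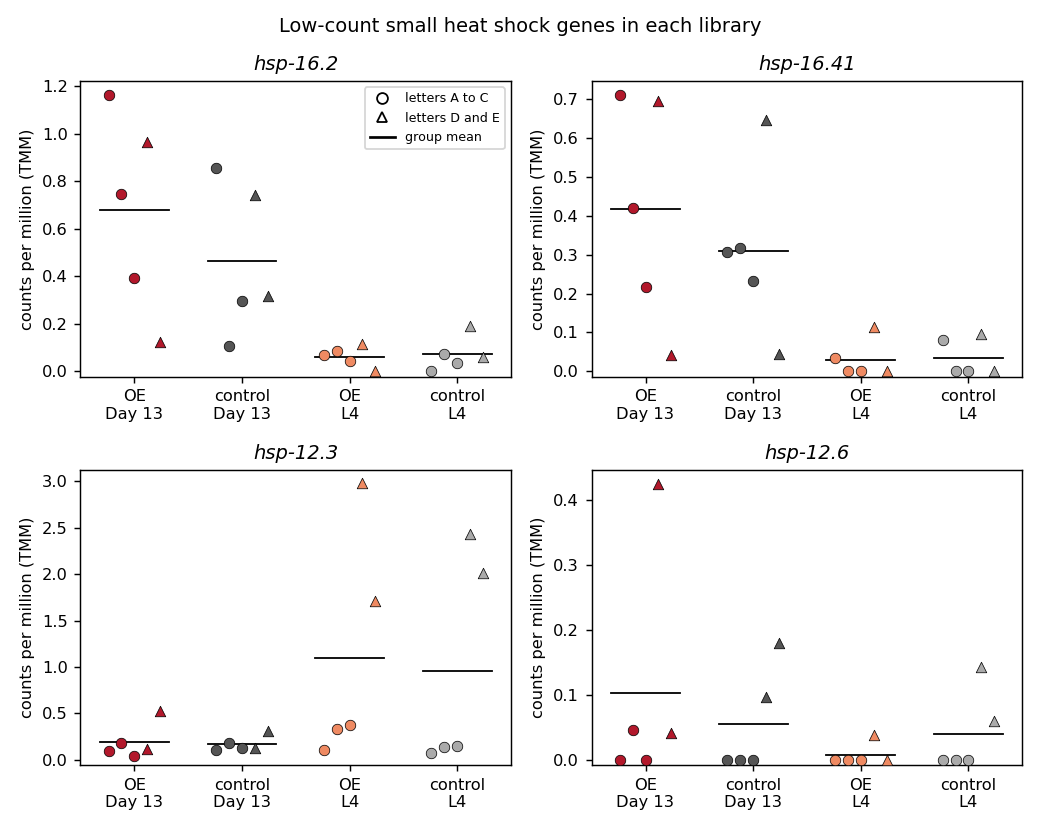
CPM (TMM-scaled, linear axes) of hsp-16.2, hsp-16.41, hsp-12.3 and hsp-12.6 in each of the 20 libraries, by group. Circles are letters A to C, triangles letters D and E, and bars the means of 5 libraries; the hsp-16 genes are higher at Day 13 (means 0.678 and 0.464 CPM for hsp-16.2), while hsp-12.3 is high in the L4 triangles alone (1.71 to 2.98 CPM).

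The Hsp12 gene hsp-12.3 ran the other way, and its level followed the letters. At Day 13 it had 3, 4, 1, 3 and 13 counts in OE and 3, 5, 4, 4 and 7 counts in control libraries A to E. At L4 it had 3, 8, 9, 79 and 38 counts in OE and 2, 4, 4, 51 and 34 counts in control. The L4 libraries D and E stood at 1.71 to 2.98 CPM, above every other library, all of which lay between 0.0436 and 0.528 CPM. Tested without the filter over all 5 letters, hsp-12.3 fell by 2.34 on the log2 scale in OE worms (SE 0.86, edgeR adjusted p = 0.0576) and by 2.34 in control worms (SE 0.85, edgeR adjusted p = 0.0546). Within letters D and E it fell by 2.76 in OE and by 3.24 in control worms (edgeR adjusted p = 0.000427 and 6.52e-05). Within letters A to C the log2 change was -1.44 ± 0.76 in OE and -0.06 ± 0.90 in control worms (SE, edgeR adjusted p = 0.167 and 0.961). Without letter D the log2 change over the other letters was -1.41 in OE and -1.73 in control worms, and without letter E it was -2.17 in control worms, with no call in these (edgeR adjusted p = 0.283, 0.186 and 0.116). By exact permutation the adjusted p was 0.248 in OE and 0.592 in control worms.

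Counts of hsp-12.6 were few and came from letters D and E almost alone. It had 0, 1, 0, 11 and 1 counts in OE and 0, 0, 0, 3 and 4 counts in control libraries A to E at Day 13, and 0, 0, 0, 1 and 0 counts in OE and 0, 0, 0, 3 and 1 counts in control libraries at L4. A single count, in OE library B at Day 13, came from letters A to C. The log2 change with age, without the filter, was 3.08 ± 1.34 in OE worms (SE, edgeR adjusted p = 0.102) and 0.52 ± 1.26 in control worms (SE, edgeR adjusted p = 0.770), and neither was called.

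By contrast sip-1 was among the most abundant transcripts of the aged worms. It took 0.743% to 1.45% of all counts of a library in OE and 0.809% to 1.702% in control worms at Day 13, and ranked 9th to 42nd and 5th to 35th among all genes by CPM. At L4 it took 0.00877% to 0.289% in OE and 0.0115% to 0.370% in control worms. In libraries A to E the levels at Day 13 were 10451, 13903, 14060, 5728 and 8350 CPM in OE worms and 10562, 10061, 10999, 5733 and 8251 CPM in control worms. At L4 they were 3303, 3652, 2081, 130 and 103 CPM in OE worms and 5714, 849, 2943, 160 and 158 CPM in control worms. Every Day 13 library thus lay above every L4 library, by little for control L4 library A. The share of all genes that were so separated was not computed. Letters A to C lay above letters D and E in both strains at either age. Before TMM scaling this order held at L4 but in neither strain at Day 13. Control letters D and E, with 1.27% and 1.702% of counts, lay above letters A to C, with 0.809% to 0.947%. In OE worms library E (1.407%) lay above B (1.265%) and C (1.267%), while D (0.743%) was the lowest.

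**Figure D2:**
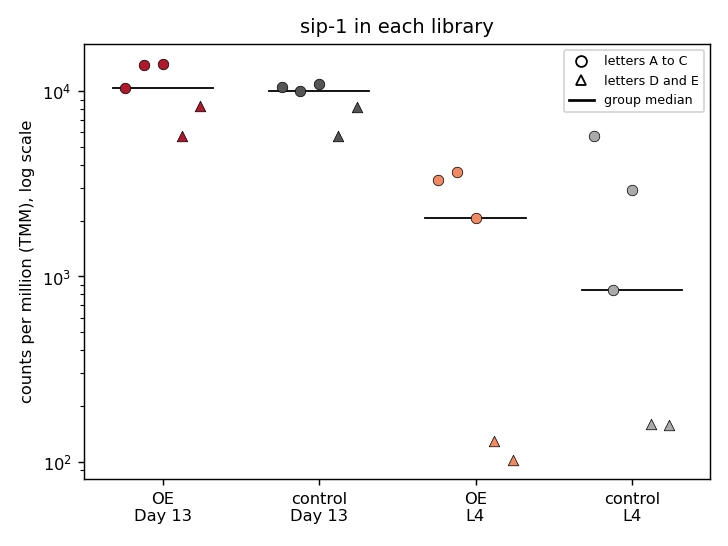
sip-1 in each of the 20 libraries, in TMM-scaled CPM on a log axis; circles are letters A to C, triangles letters D and E, and bars the group medians. All Day 13 libraries (5728 to 14060 CPM) lie above all L4 libraries, of which control library A is the highest at 5714 CPM and letters D and E the lowest at 103 to 160 CPM.

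The log2 change of sip-1 between L4 and Day 13 was 2.48 ± 0.87 in OE worms (SE, edgeR adjusted p = 0.0395), a rise at a threshold that 49.2% of 8863 tested genes passed. In control worms it was 1.93 ± 0.88 (SE, edgeR adjusted p = 0.105), which missed the threshold that 45.6% of 9063 genes passed. Without the filter, where 35.1% of genes passed, sip-1 was called in control worms. The titles give each library a letter, by which libraries can be matched across ages. With the letter as a replicate block sip-1 was called in both strains, where 58% of genes passed in OE and 58.3% in control worms. The log2 change was then 3.48 in OE and 3.23 in control worms (edgeR adjusted p = 0.0126 and 0.0139). By exact permutation p was 0.00794 in either strain, the smallest it can give, with adjusted p = 0.0369 in OE and 0.0430 in control worms. Within letters A to C the change was 1.87 in OE and 1.44 in control worms (edgeR adjusted p = 0.00319 and 0.0332), and within letters D and E it was 5.95 and 5.45 (edgeR adjusted p = 2.9e-06 and 7.92e-06). The difference in size between the sets of letters was not itself tested. In control worms sip-1 was called without letter A (log2 change 3.04, edgeR adjusted p = 0.0414), and in OE worms the call was lost without letter C (2.40, edgeR adjusted p = 0.115).

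**Figure D3:**
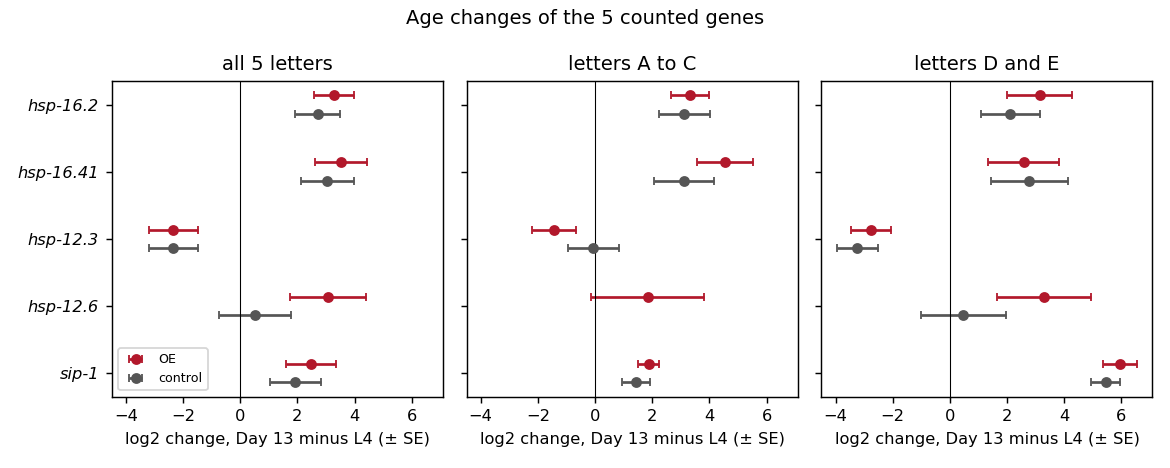
Log2 change from L4 to Day 13 with its edgeR standard error for the 5 genes that had counts, in OE (red) and control (grey) worms, over all 5 letters, letters A to C and letters D and E; sip-1 is from the fit with the low-count filter and the others from the fit without it. The hsp-16 changes lie above 0 in both sets of letters, hsp-12.3 falls in letters D and E, and sip-1 changes by 1.44 to 1.87 in A to C and by 5.45 to 5.95 in D and E; hsp-12.6 had no count in control letters A to C.

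The summed CPM of 7 oocyte genes, like sip-1, was higher at Day 13 than at L4 within each letter. This did not hold for each gene alone. In control letter A, rme-2 was at 22.65 CPM at Day 13 and at 23.58 CPM at L4. In TMM-scaled CPM at Day 13 the sets of letters stood in the opposite order to sip-1. As shares of counts, sip-1 was itself higher in control letters D and E (1.27% and 1.702%) than in A to C (0.809% to 0.947%). In OE worms these shares overlapped between the sets. The summed level of 7 oocyte genes (rme-2, oma-1, oma-2, puf-5, cbd-1, egg-1 and egg-2) was 92.4 to 118 CPM in OE and 50.0 to 58.5 CPM in control letters A to C at Day 13. In letters D and E it was 170 to 244 CPM in OE and 166 to 203 CPM in control worms, where sip-1 CPM was the lower. At L4 it was 41.4 to 82.7 CPM in OE and 9.87 to 52.8 CPM in control letters A to C, against 9.50 to 11.0 CPM in OE and 4.55 to 7.02 CPM in control letters D and E. All 7 genes were called higher with age in OE worms and 6 of 7 in control worms. Of all genes tested, 2291 of 8863 were called higher in OE and 1986 of 9063 in control worms. In control worms rme-2 was higher but missed the threshold (log2 change 1.59, edgeR adjusted p = 0.115). The 7 genes had median log2 changes of 1.78 in OE and 2.63 in control worms, against 0.22 and 0.12 over all genes tested. Among the largest were those of egg-1 (2.28 and 2.72), which like egg-2 encodes a receptor at the egg surface needed for fertilisation, and of oma-2 (1.99 and 2.67), a zinc finger protein of oocyte maturation. Within letters A to C, where sip-1 was called in both strains, egg-1 changed by 0.36 ± 0.36 in OE and 0.27 ± 0.45 in control worms and was not called (SE, edgeR adjusted p = 0.454 and 0.650). Without letter D or E egg-1 lost its call (1.84 and 1.27 in OE worms, 2.09 and 2.03 in control worms), as it did in control worms with the replicate block (2.296, edgeR adjusted p = 0.104). oma-2 lost its call in OE worms without letter A, C, D or E (1.45 to 2.26). No defining gene of the list was at 0 at Day 13, and only 1 was at 0 in any library, in control L4 letters D and E. Relative to the oocyte sum, sip-1 was 33.8 to 152 times as high in OE and 34.6 to 220 times as high in control libraries at Day 13, against 9.33 to 53.3 in OE and 22.8 to 108 in control libraries at L4. The part of oocyte or embryo RNA in the sip-1 values was not tested.

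**Figure D4:**
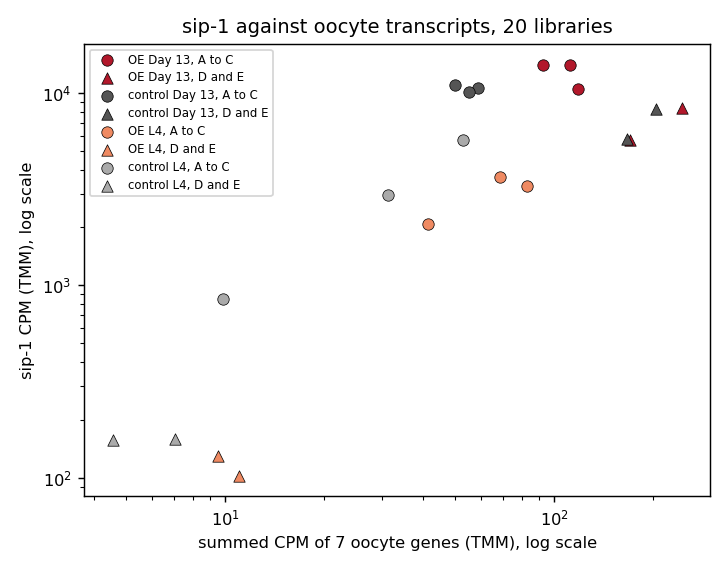
sip-1 CPM against the summed CPM of 7 oocyte genes in the 20 libraries, both on log axes; colours are the 4 groups, circles letters A to C and triangles letters D and E. The 4 L4 triangles lie at the low end of both axes (103 to 160 CPM of sip-1), while the oocyte sums of control Day 13 letters A to C overlap those of OE L4 letters A to C.

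The effect of elt-2 overexpression was asked of the same genes at either age, and no difference was called in any of the 5 members with counts. At Day 13 the filter left 2 members, and 1 of 8544 genes (0.0117%) was called, which was elt-2. The log2 difference, OE minus control, was 0.17 ± 0.36 for sip-1 and 0.49 ± 0.59 for hsp-16.2 (SE, edgeR adjusted p = 0.920 and 0.812). hsp-16.2 was higher in OE in 4 of 5 letters, and the groups overlapped. At L4 the filter left sip-1 alone, with -0.16 ± 1.16 (SE, edgeR adjusted p = 0.980). There 3 of 8696 genes (0.0345%) were called, and elt-2 was not among them. Without the filter, where 0.011% of genes were called at Day 13 and 0.0117% at L4, the 5 counted members had edgeR adjusted p-values from 0.800 at Day 13 and from 0.670 at L4 upward. No member reached an unadjusted p of 0.05 in either fit. With the letter as a replicate block edgeR called 0 of 8544 genes (0%) at Day 13, elt-2 among those lost, with 854 at an unadjusted p under 0.05, and 211 of 8696 (2.43%) at L4. DESeq2 called 741 of 8497 genes (8.72%) at Day 13 and 461 of 8684 (5.31%) at L4, and letters A to C alone 4095 of 8716 and 2958 of 9007. In all of these 0 members were called, with adjusted p-values with the block of 0.814 for sip-1 and 0.640 for hsp-16.2 at Day 13 and 0.879 for sip-1 at L4. Exact permutation gave p-values of 0.397 or more at Day 13 and 0.444 or more at L4.

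The age changes were also compared between the strains. The difference of age changes, OE minus control, was 0.68 ± 1.12 for hsp-16.2, -0.02 ± 1.697 for hsp-12.3 and 0.29 ± 1.26 for sip-1 on the log2 scale (SE, edgeR adjusted p = 1 for each), in a fit to 20 libraries that called 0 of 10545 genes (0%) and gave 266 an unadjusted p under 0.05.

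Of 9 other small heat shock genes 5 passed the filter in the age comparisons, and none of the 5 was called higher at Day 13. In OE worms 3 of these 5 were called, all lower, and in control worms 2, both lower, with median log2 changes of -0.69 and -0.63. Of all genes tested, 49.2% were called in OE worms (2070 of 8863 lower) and 45.6% in control worms (2150 of 9063 lower). hsp-12.2, a further Hsp12 gene, fell by 3.61 in OE and by 2.78 in control worms (edgeR adjusted p = 0.000516 and 0.00398), at 2.65 to 9.61 CPM in OE and 6.63 to 35.4 CPM in control at Day 13 and 33.1 to 133 CPM in OE and 103 to 179 CPM in control at L4. hsp-25 fell by 1.81 in OE and by 1.85 in control worms (edgeR adjusted p = 0.0199 and 0.0146), and hsp-17 fell by 0.69 in OE worms (edgeR adjusted p = 0.0625). The hsp-17 call was lost without letter A or C (-0.75 and -0.68) and with totals lacking the top 3% of genes (-0.35). None of the 5 was called between the strains by edgeR. Without the filter the other 4 genes gave further calls, which are named here after their values were seen. That fit called 36.4% of all genes in OE and 35.1% in control worms. F08H9.3, which RefSeq lists as hsp-16.20, was higher at Day 13 in OE worms (edgeR adjusted p = 0.0119), with 1 to 9 counts at Day 13 and 0 in every L4 library, and was not called in control worms, with 1 to 3 counts at Day 13 and 0 to 2 at L4 (edgeR adjusted p = 0.864). hsp-12.1 was lower at Day 13 in both strains, with 0 to 1 counts at Day 13 in either, against 2 to 11 counts in OE and 1 to 7 counts in control worms at L4 (edgeR adjusted p = 0.00890 and 0.0150). ZK1128.7 was lower at Day 13 in control worms (edgeR adjusted p = 0.0639), with 0 counts at Day 13 and 0 to 2 at L4, all under the floor of 3 counts.

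Among 7 regulators, 3 were called higher with age in either strain, of 7 tested in OE and 6 in control worms. Of all genes tested, 2291 of 8863 were called higher in OE and 1986 of 9063 in control worms. hsf-1, which encodes the factor that switches on hsp-16 genes after heat, changed by 1.16 ± 0.32 in OE and 0.99 ± 0.37 in control worms (SE, edgeR adjusted p = 0.0142 and 0.0526). The range of hsf-1 at Day 13 was 2.40 to 4.66 CPM in OE and 2.01 to 4.83 CPM in control worms. At L4 it was 0.812 to 2.16 CPM in OE and 0.820 to 1.95 CPM in control worms. ddl-2, a partner in the complex that holds HSF-1 back, changed by 1.90 in OE and 1.20 in control worms, and daf-2, the insulin receptor gene, by 1.58 and 1.83 (edgeR adjusted p of 0.0443 or less for each). In control worms hsf-1 was not called within letters A to C (0.47, edgeR adjusted p = 0.280) or without letter D or E (0.83 and 0.80), and ddl-2 was not without letter B or E (1.16 and 1.10). Within letters D and E ddl-2 was called in neither strain (0.73 in OE and 1.08 in control worms), and daf-2 missed the threshold in OE letters A to C (1.09, edgeR adjusted p = 0.107). The chaperone genes of the heat response outside the small heat shock family were mostly not called. In OE worms 1 of 7 tested rose and 1 fell by edgeR, where 49.2% of all genes were called. In control worms edgeR called 0 of 6, with 0 at an unadjusted p under 0.05, where 45.6% of all genes were called. DESeq2, which called 53.9% of all genes there, called 1, hsp-110 (log2 change -0.56, DESeq2 adjusted p = 0.0219). That gene was named here after its value was seen. In OE worms F44E5.5, an inducible Hsp70 gene with a near-identical neighbour F44E5.4, rose by 1.88 (edgeR adjusted p = 0.0922), and sti-1, a co-chaperone of Hsp90 and Hsp70, fell by 1.14 (edgeR adjusted p = 0.0670). F44E5.5 lost its call without letter A, B or C (log2 change 1.27, 1.55 and 1.94) and in letters D and E alone (0.01), and sti-1 without letter A, B or D (-1.07, -1.14 and -1.27). Reads of F44E5.4 and F44E5.5 are uncertain, since the counting could split them.

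**Figure D5:**
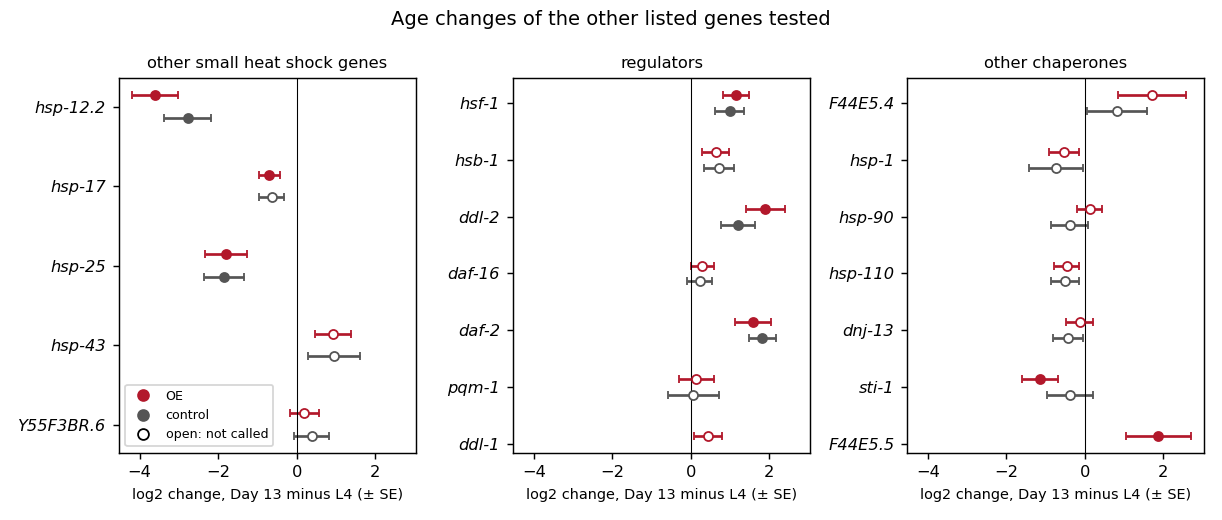
Log2 change from L4 to Day 13 with its edgeR standard error for the tested genes of 3 further lists, in OE (red) and control (grey) worms; filled points passed an adjusted p of 0.10 and open points did not. hsp-12.2 and hsp-25 lie at -1.81 or below in both strains, while hsf-1, ddl-2 and daf-2 lie at 0.99 or above.

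As a description over the 20 libraries, which share age and letter, the genes most like each member that passed the filter were found by Pearson's r of log2 CPM among 10542 other genes. For hsp-16.2 they were fbxb-24 (r = 0.94), Y75B12B.12 (r = 0.91) and ins-22, an insulin-like peptide gene (r = 0.90). For hsp-12.3 they were phg-1 (r = 0.97), mboa-1 (r = 0.96) and Y38H6C.23 (r = 0.96). For sip-1 they were ule-1 (r = 0.98), the collagen gene col-95 (r = 0.98) and spex-3 (r = 0.97).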

How the data were processed

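The authors deposited a table of read counts per gene for the 20 libraries; the submitters' notes name Bowtie 0.12.7, and the genome build, annotation, use of strand and counter are not given in the sources used here. The table also holds 3 columns without a header, which were not used. Samples were grouped by title. Raw counts went into the robust quasi-likelihood F test of edgeR 4.0.16 (R 4.3.3) after filterByExpr and TMM scaling, Benjamini-Hochberg adjusted over all genes tested, at a false discovery rate of 10%. Each fit held the 10 libraries compared, or all 20 for the difference of age changes. SE is the log2 change divided by the root of F. Apart from the limits for a count of 0, CPM used TMM factors of all 20 libraries. In permutation tests 0.5 was added before log2. These tests were adjusted over all genes with a count rather than over the members as first planned. Genes that filterByExpr removed were also fitted without it.

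Same-letter libraries deviated together from their group means (mean correlation 0.675 between strains at L4, 0.517 between ages in control and 0.337 in OE worms, each of 5 pairs above 0.1). At Day 13 between strains 4 of 5 pairs did. Pairs of different letters were not compared. These correlations therefore cannot tell pairing by letter from the split into letters A to C and letters D and E. The pairing comes from the letters in the titles. Alternatives were this replicate block, DESeq2 1.42.0, totals without the top 3% of genes, no filter, summed hsp-16 copies, sets of letters and each letter left out. The scripts were tested on simulated data. The members and lists were chosen with earlier results of these data known. All 9 members are named. Of each other list, at most 3 called genes with the largest change per comparison are named, with the 3 genes most like each member that passed the filter. The other cell marker lists (intestine, body muscle, hypodermis, neuron and sperm) were described as in the closing section.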

Additional observations from a re-analysis of the deposited data

Results flagged for a closer look

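In 20 groups of 5 libraries, those of the 5 counted members in the 4 groups, the library farthest from its group was set against the range of the group (Dixon's ratio, 95% limit 0.71). For normally distributed values chance flags about 1 in 20 groups. That rate need not hold for counts near 0, since a group with counts in 1 library alone always has a ratio of 1. The limit was exceeded by 2 groups, both of hsp-12.6. In OE worms at Day 13, library D held 0.425 CPM (11 counts) against a group median of 0.0406 CPM. In OE worms at L4, library D held 0.0377 CPM, which is 1 count, while the other libraries had none, so that value lies below the floor of 3 counts.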

How the results depend on the processing

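Counts of members called with age in control worms, 0 of the 1 tested, became 1 with the replicate block, with DESeq2, with totals lacking the top 3% of genes and in letters A to C alone, 3 in letters D and E alone and 4 without the filter, and were 0 to 1 over the letters left out in turn. Of all genes these called 58.3%, 53.9%, 53.7%, 55.4%, 58.4%, 35.1% and 36.8% to 40.7%, against 45.6%. In OE worms the count of 1 became 4 without the filter and 2 in letters D and E alone, and was 0 to 1 over the letters left out, where 36.4%, 56.2% and 36.7% to 43.1% of all genes were called, against 49.2%. The causes were not tested. The filter decides which members are tested, and without it sip-1 also gained a call in control worms. Between the strains and in the difference of age changes the count stayed at 0 under each alternative run, while between strains the share of all genes called ran up to 32.8% at L4 and 47% at Day 13, both in letters A to C alone. Summing the hsp-16 copies changed nothing, since all were at 0.

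Directions changed only in values that had not been called. The sip-1 difference between strains at L4 was 0.34 with totals without the top 3% and -0.76 to 0.53 over the letters left out, and at Day 13 it was -0.017 in letters D and E, where that of hsp-16.2 was -0.042. The hsp-12.6 age change in control worms was -0.30 to 1.28 over the letters left out. The difference of age changes of hsp-12.3 was 0.035 with DESeq2, 0.11 with totals without the top 3%, 0.48 in letters D and E and 0.029 to 0.22 without letter A, B, C or D in turn (without E it did not pass the filter), and that of sip-1 was -0.28 to 0.79 over the letters left out. With 0.1 added before log2, the hsp-12.3 difference between strains at Day 13 was -0.035. Without the filter, further differences between strains changed sign, none of them called: at Day 13 that of hsp-12.3 (0.17) was -0.08 with the block, -0.57 in letters A to C and -0.38 without E, that of hsp-12.6 (0.90) was -0.77 without D, and those of hsp-16.2 (0.48) and hsp-16.41 (0.34) were -0.016 and -0.0088 from letters D and E. For L4 worms that of hsp-16.2 (-0.15) was 0.07 with totals without the top 3%, 0.73 in letters A to C, 0.24 without D and 0.08 without E, and that of hsp-16.41 (-0.18) was 0.03, 0.36 without A and 0.19 from the pair D and E. The causes were not tested. In OE worms hsp-12.6 gained a call with totals without the top 3% (3.28, edgeR adjusted p = 0.0694). The replicate block changed no call of a member other than that of sip-1 in control worms (3.23).

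Totals without the top 3% moved the median log2 change of all genes to 0.56 in OE and 0.61 in control worms with age, against 0.22 and 0.12 with TMM, and to 0.29 at L4 and 0.28 at Day 13 between strains, against 0.05 and 0.03; changes on that scale are relative to these medians. Depth limits the hsp-16 and hsp-12 genes, with at most 79 counts in a library.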

Other observations

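The marker lists of other cell types also changed with age, as values beside the members. Of all genes tested, edgeR called 49.2% in OE worms (2070 of 8863 lower) and 45.6% in control worms (2150 of 9063 lower). In OE worms 3 of 4 intestine, 3 of 3 body muscle and 3 of 3 hypodermis genes were called lower at Day 13. In control worms these counts were 3 of 4, 3 of 3 and 2 of 3. Of 3 neuron genes 1 was higher and 2 lower in either strain. Sperm genes were lower in 1 of 1 tested in OE and 2 of 2 tested in control worms. None of these lists had a call between strains by edgeR.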
